A study of Mus musculus with 28 samples.

Results

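Transcript levels of the collagen genes were followed in liver and muscle of obese mice given aspirin together with trimetazidine. The members were all protein-coding genes named Col, a number, a and a number. There were 44 of them in each of the 3 deposited tables, among 54163 genes for liver and 54189 for muscle at 40 d, and 54501 at 24 h. By class, 11 encode fibrillar collagens, 6 the type IV chains of basement membranes, 6 the type VI chains of microfibrils, and 21 the remaining types.

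The treated mice received acetylsalicylate (aspirin, a cyclooxygenase inhibitor) at 3.0 mg/kg and trimetazidine (an inhibitor of fatty acid oxidation) at 5.0 mg/kg by intraperitoneal injection each day, and the vehicle mice received the solvent in equal volume. Both groups were male C57BL/6J mice of the genotype Lepob/Lepob, which lack functional leptin, and both ate the AMLN diet (rich in fat, fructose and cholesterol) from 4 weeks of age. The diet ran for 20 weeks before treatment as a model of fatty, inflamed liver (NASH), and lean mice and mice on another diet were not analysed here. At 40 d there were 6 treated and 6 vehicle libraries of each tissue, and at 24 h 1 treated and 1 vehicle library of each. Treated mice carry the labels 4_5 and 5_1 to 5_5, and vehicle mice 2_1, 2_3, 2_4, 2_5, 3_2 and 6_1. No leading digit was used in both groups, so whatever it stands for cannot be told apart from the treatment. The labels do not name the muscle, nor say whether libraries of a group came from separate animals beyond these numbers. If they did not, the p-values measure a spread that may be technical.

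Collagens are matrix proteins in which α chains with glycine at regular steps wind into a rope-like helix. Fibrillar collagens form the banded fibres that bear tension. Type IV chains form the sheet under epithelia, around vessels and around muscle fibres, and type VI chains form beaded filaments that tie cells to the matrix. In injured liver, activated stellate cells and portal fibroblasts make much of the type I and III collagen of scars. In muscle, fibroblasts of the connective tissue between the fibres are a main source.

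Values are FPKM as deposited, which scale fragments to exon length and to a total set for each library. That total was not the number of reads on genes. In the treated 24 h liver it was 14.09 M, below the 16.96 M reads on genes. In treated liver 5_5 at 40 d it was 18.71 M, above the 17.88 M reads on genes. A log2 fold change is the treated minus the vehicle mean of log2(FPKM + 1), so it comes out too small where a gene is low. A gene was tested where 6 or more of a tissue's 12 libraries reached 1 FPKM, and called where limma's adjusted p was under 0.05. Reads assigned to genes numbered 16.8 to 18.9 M per liver library, 16.1 to 19.9 M per muscle library and 16.1 to 17.4 M per library at 24 h. Collagens took 0.101% to 0.243% of reads in treated and 0.104% to 0.158% in vehicle livers, and 0.182% to 0.292% in treated and 0.197% to 0.383% in vehicle muscles. Tissue labels went with their markers. A list of 6 hepatocyte genes summed to 22900 to 39030 FPKM in treated and 32110 to 37410 FPKM in vehicle livers, and a list of 7 muscle fibre genes to 34050 to 50580 FPKM in treated and 30090 to 57120 FPKM in vehicle muscles. The fibre list reached 4.02 FPKM in treated liver 4_5 and at most 0.218 FPKM in any other liver. All values come from bulk tissue, in which fewer cells of a type and less RNA per cell cannot be told apart.

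The stretches just upstream of 4 genes are shown because Col6a1 and Col6a2 had the largest positive fold changes in liver, Col6a3 is their partner chain, and Col3a1 had the most negative fold change in muscle. They are RefSeq windows of GRCm38.p6, on the strand of each gene and outside annotated exons. Capitals mark any of 3 promoter motifs, searched on both strands, and none overlaps another here. They are the TATA box, which was searched as TATAAA. The CCAAT box was searched by the letters of its name. The GC box, a site known for factors of the Sp family, was searched as GGGCGG. Col3a1 is at chr1:45311288-45311537 on the plus strand, Col6a1 at chr10:76726169-76726294, Col6a2 at chr10:76623631-76623880 and Col6a3 at chr1:90843972-90844221, all 3 on the minus strand.
Col3a1: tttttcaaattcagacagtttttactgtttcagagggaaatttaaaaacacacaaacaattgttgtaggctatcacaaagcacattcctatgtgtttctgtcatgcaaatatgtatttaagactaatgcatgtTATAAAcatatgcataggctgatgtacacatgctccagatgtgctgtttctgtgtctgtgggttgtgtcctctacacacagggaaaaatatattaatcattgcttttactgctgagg
Col6a1: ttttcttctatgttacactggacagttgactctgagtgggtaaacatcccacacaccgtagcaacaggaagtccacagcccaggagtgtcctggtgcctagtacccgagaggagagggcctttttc
Col6a2: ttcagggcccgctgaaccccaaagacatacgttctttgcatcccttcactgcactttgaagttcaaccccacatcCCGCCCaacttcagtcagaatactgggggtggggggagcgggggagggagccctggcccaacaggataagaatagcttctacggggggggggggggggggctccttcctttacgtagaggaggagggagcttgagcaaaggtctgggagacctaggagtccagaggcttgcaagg
Col6a3: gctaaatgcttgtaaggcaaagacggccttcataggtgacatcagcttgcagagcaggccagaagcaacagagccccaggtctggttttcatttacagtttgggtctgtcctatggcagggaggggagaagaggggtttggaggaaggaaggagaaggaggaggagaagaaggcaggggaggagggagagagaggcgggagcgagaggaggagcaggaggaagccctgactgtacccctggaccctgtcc
The Col3a1 window holds 1 match to the TATA box letters and the Col6a2 window 1 match to those of the GC box. The windows of Col6a1 and Col6a3 hold none, but that of Col6a1 has only 126 bases, against 250 for the others. Matches were taken at any distance from the start site, so none is shown to act as a promoter motif. For shares over genes, 250 bases of each RefSeq window were searched without a cut at exons. Among the 35 collagens with a RefSeq window, 14.3% held the letters of the TATA box, 37.1% of the CCAAT box and 60% of the GC box. Of all 32851 windows, 12.4%, 33.9% and 32.7% held them. A collagen was counted if any of its windows held the motif, whereas the other shares count single windows. A gene with several windows has more chances, so the shares are not directly comparable. Col6a1 and Col6a2 are neighbours on the same strand of chromosome 10, with start sites 102538 bases apart, whereas Col6a3 lies on chromosome 1. Of the 44 genes, 13 share any exonic base with another gene and 0 share 10% or more of their exons.

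In treated livers at 40 d, no collagen passed limma's test. The chains of type VI encoded by Col6a1 and Col6a2 had the largest positive log2 fold changes, 0.67 and 0.58, and Col1a1, Col1a2, Col3a1 and Col5a2 varied far more among treated than among vehicle livers. Of the 44 collagens, 15 passed the filter on low values in liver and 0 of these were called, beside 0.255% of the 10995 genes tested. At an unadjusted p under 0.05 there were 3, namely Col6a1 and Col6a2 with higher and Col14a1 with lower means in treated livers, where 13.2% of all genes tested reached that level, 5.88% with higher and 7.35% with lower means. The groups overlapped in each of the 15, beside 0.427% of all genes with every treated liver higher and 0.728% with every treated liver lower. The fold change was above 0 in 10 of 15 and below 0 in 5, with a median of 0.07 on the log2 scale, beside 49.0% above 0 and a median of -0.003 over all genes tested.

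**Figure D1:**
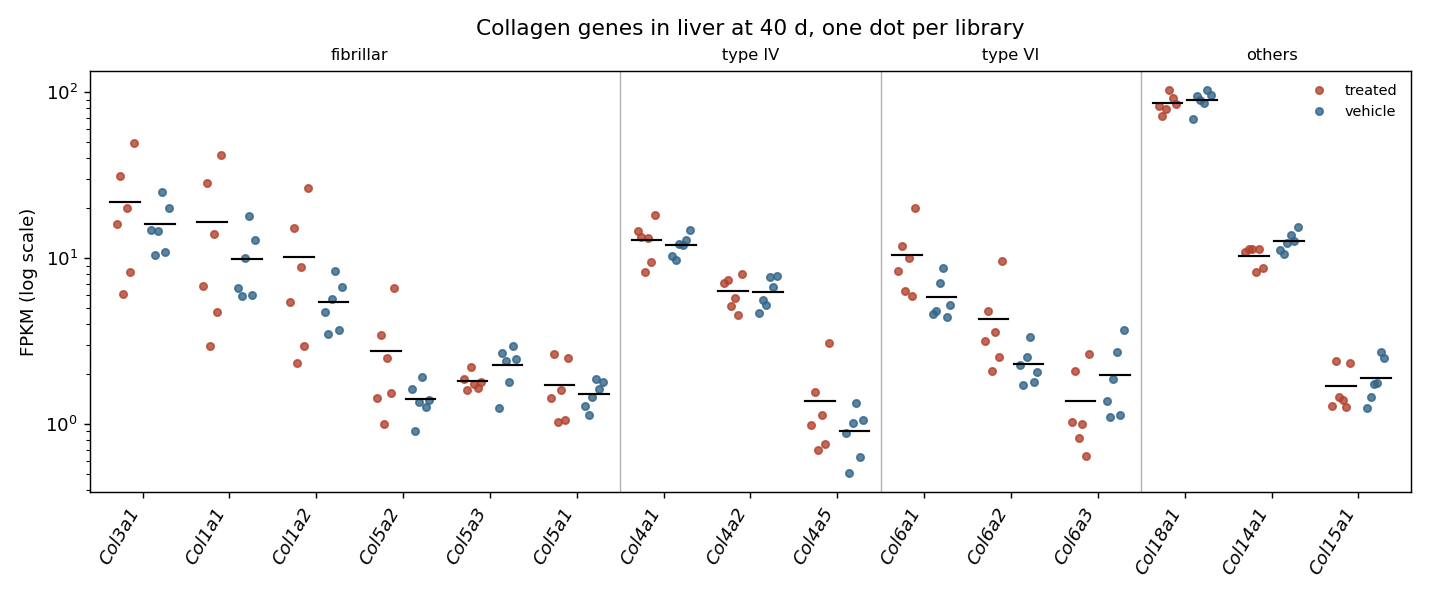
FPKM (log axis) of the collagens tested in liver at 40 d, 1 dot per library, treated left of vehicle, with bars at group means. Treated values of Col1a1 spread from 2.94 to 41.8 FPKM, against 5.92 to 17.9 FPKM in vehicle livers.

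Among the fibrillar collagens, type I is the chief protein of scars and is built from the chains of Col1a1 and Col1a2. Col1a1 (ENSMUSG00000001506, chromosome 11, 94936224 to 94953042, plus strand, GRCm38) had a lowest, median and highest value of 2.94, 10.3 and 41.8 FPKM in treated livers, against 5.92, 8.28 and 17.9 FPKM in vehicle livers. Treated livers 5_5 and 5_1 lay above every vehicle liver, and treated 5_2 and 5_4 below every vehicle liver. The means were 16.4 ± 15.5 FPKM in treated and 9.87 ± 4.78 FPKM in vehicle livers (SD, n = 6 each), and the log2 fold change was 0.27 (95% interval -0.87 to 1.41, limma adjusted p = 0.860). Col1a2 ran from 2.33 over a median of 7.15 to 26.3 FPKM in treated livers, against 3.49, 5.18 and 8.35 FPKM in vehicle livers. It had 3 treated livers above and 2 below the whole vehicle range, with a log2 fold change of 0.44 (95% interval -0.52 to 1.41, limma adjusted p = 0.701).

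Type III collagen, the product of Col3a1 (ENSMUSG00000026043, chromosome 1, 45311538 to 45349706, plus strand), accompanies type I in soft tissues and early scars. Its lowest, median and highest levels were 6.05, 18.0 and 49.4 FPKM in treated livers and 10.4, 14.7 and 25.1 FPKM in vehicle livers. Again 2 treated livers lay above and 2 below the vehicle range, and the means, 21.8 ± 16.2 FPKM in treated and 16.0 ± 5.67 FPKM in vehicle livers (SD, n = 6 each), differed by less than the spread (log2 fold change 0.17, 95% interval -0.73 to 1.07, limma adjusted p = 0.891). Type V chains start and regulate fibrils. Col5a2 stood at 0.993, 2.02 and 6.62 FPKM (lowest, median and highest) in treated livers, against 0.906, 1.38 and 1.93 FPKM in vehicle livers. Its 3 highest treated livers exceeded all vehicle livers (log2 fold change 0.49, 95% interval -0.08 to 1.07, limma adjusted p = 0.452).

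The remaining type V chains spread less. Col5a1 had 1.03, 1.51 and 2.64 FPKM in treated and 1.13, 1.54 and 1.85 FPKM in vehicle livers, with 2 treated livers on either side of the vehicle range and a log2 fold change of 0.07. Col5a3 ranged less in treated livers, at 1.60, 1.76 and 2.21 FPKM, than in vehicle livers, at 1.25, 2.44 and 2.95 FPKM. All 6 treated livers lay under the vehicle mean of Col5a3, inside the vehicle range (log2 fold change -0.19, limma adjusted p = 0.527). Of the other 5 fibrillar genes, Col27a1 reached 1.28 FPKM, Col11a1, Col11a2 and Col24a1 stayed at or under 0.239 FPKM, and Col2a1, the cartilage collagen, had no reads in any liver.

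Treated livers 5_5, 5_1 and 5_3 held the 3 highest treated values of Col1a1. The same 3 livers led in 7 of the other 14 collagens tested (Col1a2, Col3a1, Col5a1, Col5a2, Col4a5, Col6a1 and Col6a2), beside 6.92% of the other genes tested. This measure was chosen after the values were seen, and it depends on the deposited totals. That of 5_3 was 15.37 M for 16.77 M reads on genes, and that of 4_5 was 18.92 M for 17.98 M reads. Liver 4_5 had more reads than 5_3 of Col5a1 (229 and 209), Col4a5 (126 and 117) and Col6a2 (497 and 460). For these genes the third place of 5_3 thus rests on the totals. Treated 5_5 was the highest of all 12 livers in 9 of 15 collagens, a count for which no share over all genes tested was computed. The SD was over 3 times as high in treated as in vehicle livers for 5 of 15 collagens, beside 8.76% of all genes tested, again a limit chosen after seeing the values. Without treated 5_5 the median log2 fold change of the 15 collagens was -0.06, and without 5_1 and 5_5 together it was -0.15, where the log2 fold change of Col1a1 was -0.50, of Col1a2 -0.21 and of Col3a1 -0.39. Livers 5_1 and 5_5 held the highest treated values of these genes and were left out after the values were seen. A fall was therefore to be expected, and no vehicle liver was left out with them. With 1 liver left out in turn, Col1a2 stayed between 0.11 and 0.71. Col1a1 and Col3a1 were each below 0 in 1 of 12 such fits.

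**Figure D2:**
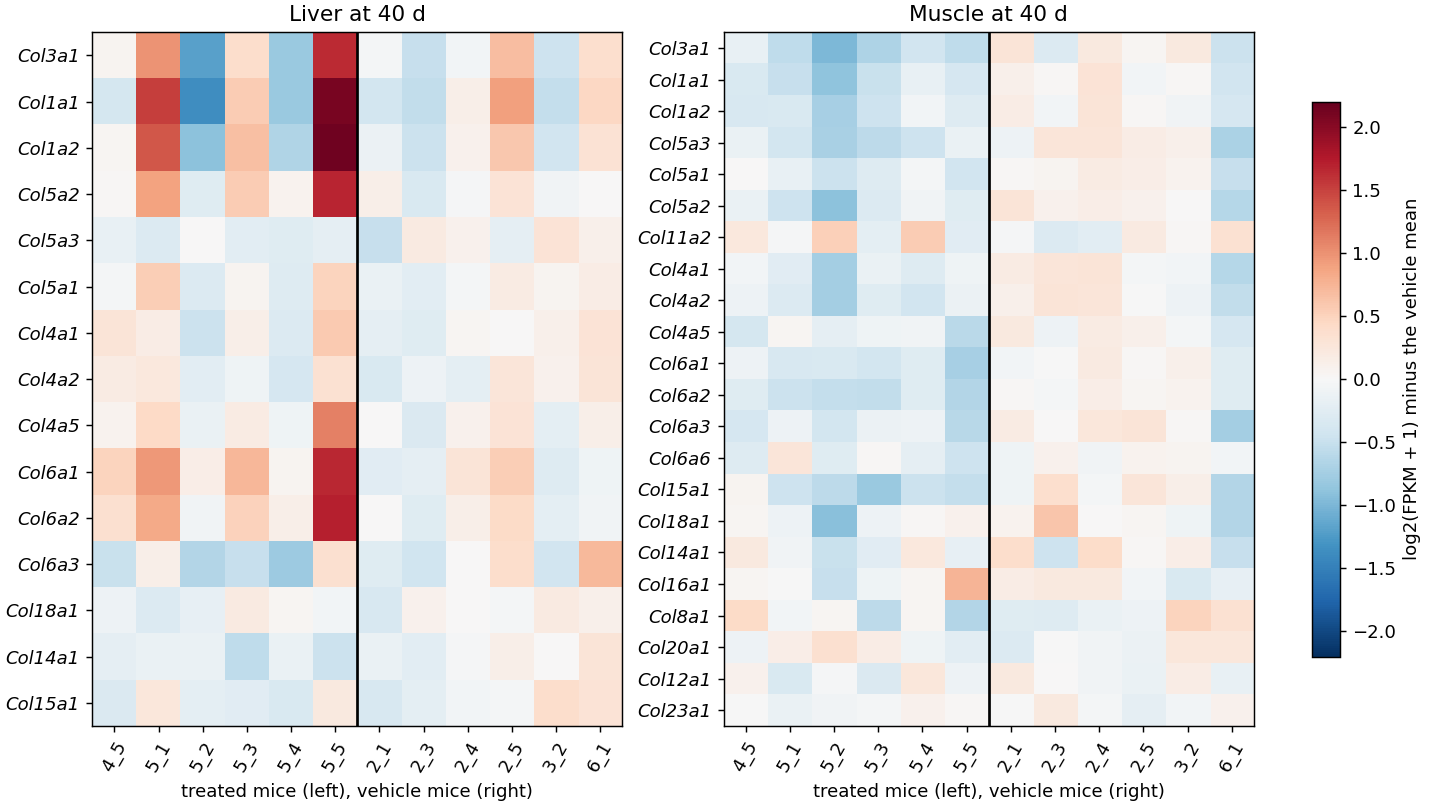
Difference of each library from the vehicle mean of its tissue, in log2(FPKM + 1), for the collagens tested, with treated mice left and vehicle mice right of the black line. Treated liver 5_5 is the darkest red column, and most treated muscles are blue in the rows of types I, III, IV, V and VI.

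Cell markers were read in the same libraries. The fibroblast list of 8 genes was Pdgfra, Dpt, Dcn, Lum, Cd34, Thy1, Pi16 and Mfap5, of which 6 passed the filter. It summed to 66.0 to 117 FPKM in treated and 61.7 to 107 FPKM in vehicle livers. Treated 5_5 had 117 FPKM and treated 5_1 had 112 FPKM. Of the 6, 5 had positive and 1 negative fold changes, beside 49.0% above 0 over all genes tested, with a median of 0.09. Thy1 averaged 1.30 ± 0.226 FPKM in treated and 0.808 ± 0.180 FPKM in vehicle livers (SD, n = 6 each, limma adjusted p = 0.131). The stellate cell list of 8 genes, led by Rgs5, Cygb and Lrat, summed to 34.0 to 50.8 FPKM in treated and 40.7 to 51.9 FPKM in vehicle livers, and treated 5_5 stood inside both ranges at 42.7 FPKM. The hepatocyte sum was lowest in treated 5_5, at 22900 FPKM, and highest in treated 5_2, at 39030 FPKM. The neutrophil list of 5 genes summed to 28.8 to 443 FPKM in treated and 10.8 to 18.0 FPKM in vehicle livers, and its highest liver was 4_5, while 5_5 had 117 FPKM. Of these genes S100a9 passed the test, with higher values in treated livers (limma adjusted p = 0.0449). The Kupffer cell list summed to 292 to 1033 FPKM in treated and 275 to 324 FPKM in vehicle livers, with 4_5 highest. The red cell list had 5 of 5 genes positive, beside 49.0% above 0 over all genes tested. It summed to 503 to 2551 FPKM in treated and 375 to 1568 FPKM in vehicle livers, and treated 5_5 was the lowest treated one. No tendon cell marker but Fmod passed the filter. The tendon list summed to 4.80 to 12.5 FPKM in treated livers, with 5_5 highest, and 2.73 to 10.4 FPKM in vehicle livers. Tnmd was at 0 in every vehicle liver and at 0 to 3.75 FPKM in treated livers. Thbs4 reached 0.033 FPKM in vehicle and 0.926 FPKM in treated livers. Both were named after their values were seen, and their groups overlapped. Scx, Mkx and Comp stayed at or under 0.398 FPKM and Kera at 0. The part of these cells in the collagen values was not tested.

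Among the type IV chains of basement membranes, Col4a1 and Col4a2 had close means in both groups of livers. Col4a1 had a lowest, median and highest value of 8.21, 13.3 and 18.1 FPKM in treated livers, against 9.73, 12.05 and 14.7 FPKM in vehicle livers. Its means were 12.8 ± 3.56 FPKM in treated and 11.9 ± 1.83 FPKM in vehicle livers (SD, n = 6 each), with a log2 fold change of 0.06 (95% interval -0.29 to 0.41, limma adjusted p = 0.901). Col4a2, its partner in the main type IV helix, stood at 4.54, 6.41 and 8.01 FPKM in treated and 4.66, 6.13 and 7.74 FPKM in vehicle livers (log2 fold change 0.01, 95% interval -0.30 to 0.32, limma adjusted p = 0.986). These intervals leave room for a change of either sign, so the chains are not shown to be equal in the groups. Col4a5, a chain of the specialised membranes of kidney and other sites, had 0.697, 1.06 and 3.08 FPKM in treated and 0.505, 0.948 and 1.33 FPKM in vehicle livers. Its means were 1.37 ± 0.893 FPKM in treated and 0.902 ± 0.300 FPKM in vehicle livers (SD, n = 6 each, log2 fold change 0.26, limma adjusted p = 0.580), and its top value was again in treated 5_5. Col4a3, Col4a4 and Col4a6 stayed at or under 0.234 FPKM in all livers.

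The type VI chains had fold changes of both signs, as the fibrillar chains did. Col6a1 (ENSMUSG00000001119, chromosome 10, 76708792 to 76726168, minus strand) had 5.90, 9.13 and 19.9 FPKM as lowest, median and highest values in treated livers, against 4.44, 4.99 and 8.66 FPKM in vehicle livers. Every treated liver exceeded the vehicle mean and 3 exceeded the whole vehicle range, but the groups overlapped. The means were 10.4 ± 5.18 FPKM in treated and 5.79 ± 1.71 FPKM in vehicle livers (SD, n = 6 each), and the log2 fold change of 0.67 (SE 0.25, 95% interval 0.14 to 1.20) had a limma adjusted p of 0.267. Col6a2 (ENSMUSG00000020241, chromosome 10, 76595762 to 76623630, minus strand) followed, with 2.09, 3.38 and 9.55 FPKM in treated and 1.71, 2.17 and 3.32 FPKM in vehicle livers. Here 5 of 6 treated livers exceeded the vehicle mean (log2 fold change 0.58, 95% interval 0.05 to 1.11, limma adjusted p = 0.340). Without treated 5_1 and 5_5 the log2 fold changes were 0.35 for Col6a1 and 0.23 for Col6a2, still above 0 and not called.

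Col6a3 (ENSMUSG00000048126, chromosome 1, 90765923 to 90843971, minus strand) encodes the long α3 chain, which joins the α1 and α2 chains in the microfibril. It stood at 0.642, 1.01 and 2.65 FPKM in treated livers, against 1.09, 1.62 and 3.68 FPKM in vehicle livers. The groups overlapped, with 4 of 6 treated livers below every vehicle liver and the log2 fold change at -0.32 (95% interval -0.84 to 0.19, limma adjusted p = 0.578). These levels rest on 138 to 592 reads in treated and 220 to 841 reads in vehicle livers. The chains of Col6a4, Col6a5 and Col6a6 reached at most 0.318 FPKM in any liver.

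The remaining collagens included the most abundant one of the liver. Col18a1 encodes a basement membrane collagen whose end fragment is endostatin, and hepatocytes are known to make it. It stood at 71.9, 83.5 and 102 FPKM (lowest, median and highest) in treated livers, against 69.0, 91.7 and 102 FPKM in vehicle livers. With Col15a1 it made up 47.9% ± 13.0 of the collagen FPKM in treated and 52.9% ± 6.32 in vehicle livers (SD, n = 6 each). Its log2 fold change was -0.07 (95% interval -0.30 to 0.17, limma adjusted p = 0.826). Col14a1, a fibril-associated collagen also called undulin, had 8.21, 11.04 and 11.3 FPKM in treated livers, against 10.5, 12.5 and 15.4 FPKM in vehicle livers. All 6 treated livers were under the vehicle mean of Col14a1 and 2 under every vehicle liver (log2 fold change -0.28, 95% interval -0.50 to -0.05, limma adjusted p = 0.275). Col15a1, a relative of Col18a1, averaged 1.68 ± 0.524 FPKM in treated and 1.90 ± 0.581 FPKM in vehicle livers (SD, n = 6 each), and the other 18 genes of the class did not pass the filter on low values.

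By order of mean level over the 12 livers, Col18a1 came first at 87.3 FPKM, far from Col3a1 at 18.9, Col1a1 at 13.1, Col4a1 at 12.4 and Col14a1 at 11.5 FPKM. The ranges of those last 4 over the samples overlapped. Col6a1 followed at 8.08, Col1a2 at 7.80, Col4a2 at 6.28 and Col6a2 at 3.29 FPKM, and the other 6 tested lay between 1.13 and 2.08 FPKM. Summed by class, fibrillar collagens gave 16.4, 41.7 and 130 FPKM (lowest, median and highest) in treated and 25.8, 33.8 and 58.0 FPKM in vehicle livers. Type VI gave 9.15, 13.7 and 32.7 FPKM in treated and 7.37, 9.74 and 14.8 FPKM in vehicle livers, and type IV 14.4, 21.3 and 29.4 FPKM in treated and 15.9, 19.6 and 23.7 FPKM in vehicle livers. The groups overlapped in every class sum.

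In treated muscle at 40 d, collagens of most classes stood at lower means than in vehicle muscle, and again none passed limma's test. Types I, III, IV, V and VI shared this direction, with log2 fold changes from -0.56 for Col3a1 to -0.16 for Col6a6. The filter on low values was passed by 22 of the 44 collagens. Of these 0 were called, beside 0.0% of the 11708 genes tested in muscle. At an unadjusted p under 0.05 there were 9, all with lower means in treated muscles, namely Col6a2, Col3a1, Col1a1, Col6a1, Col1a2, Col15a1, Col5a3, Col5a2 and Col4a2, beside 1.97% of all genes tested in that direction. The fold change was below 0 in 19 of 22, beside 51.4% of all genes tested, and the median was -0.24 on the log2 scale, beside -0.004 over all genes tested. With the libraries rescaled to one FPKM sum the median over all genes was 0.03 and that of the collagens -0.21, with 4 collagens at an unadjusted p under 0.05.

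**Figure D3:**
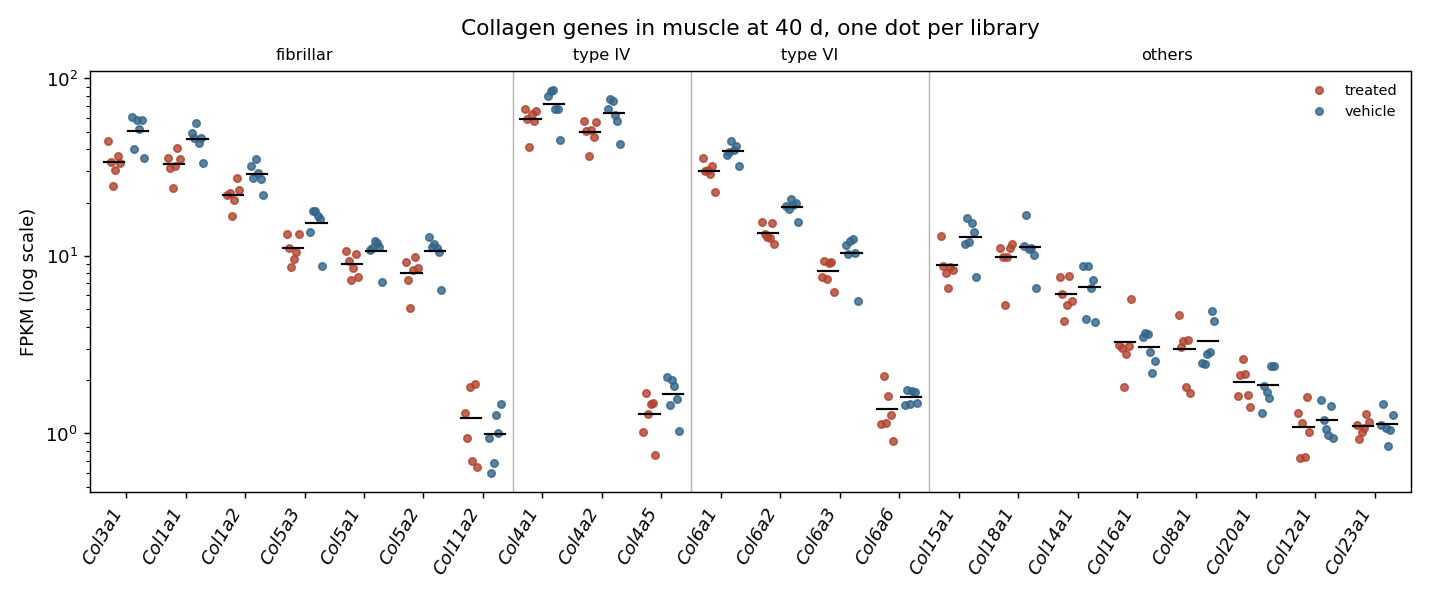
FPKM (log axis) of the 22 collagens tested in muscle at 40 d, 1 dot per library, treated left of vehicle, with bars at group means. The groups of Col6a2 do not overlap, at 11.7 to 15.5 FPKM in treated and 15.5 to 21.0 FPKM in vehicle muscles.

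Among fibrillar collagens of muscle, Col3a1 had the most negative log2 fold change. Its lowest, median and highest values were 24.7, 33.6 and 44.5 FPKM in treated muscles, against 35.7, 54.9 and 60.7 FPKM in vehicle muscles. All 6 treated muscles lay under the vehicle mean and 4 under every vehicle muscle. The means were 33.9 ± 6.57 FPKM in treated and 50.8 ± 10.5 FPKM in vehicle muscles (SD, n = 6 each), with a log2 fold change of -0.56 (SE 0.16, 95% interval -0.90 to -0.22, limma adjusted p = 0.999). Type I followed the same course. Col1a1 stood at 24.0, 33.5 and 40.4 FPKM in treated and 33.6, 46.3 and 56.2 FPKM in vehicle muscles, and 3 treated muscles lay under every vehicle muscle (log2 fold change -0.46, 95% interval -0.75 to -0.17, limma adjusted p = 0.999). Col1a2 stood at 16.8, 22.4 and 27.5 FPKM in treated and 22.0, 28.4 and 35.2 FPKM in vehicle muscles (log2 fold change -0.37, 95% interval -0.64 to -0.10, limma adjusted p = 0.999). All 6 treated muscles were under the vehicle mean of both genes.

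The type V chains had the same sign in muscle. Col5a3 had 8.70, 10.8 and 13.4 FPKM in treated muscles, against 8.82, 16.5 and 18.0 FPKM in vehicle muscles, with a log2 fold change of -0.40 (95% interval -0.75 to -0.06, limma adjusted p = 0.999). Its lowest vehicle value, in 6_1, stood well under the other 5. Col5a2 averaged 8.06 ± 1.68 FPKM in treated and 10.6 ± 2.21 FPKM in vehicle muscles, and Col5a1 8.96 ± 1.39 FPKM in treated and 10.7 ± 1.83 FPKM in vehicle muscles (SD, n = 6 each). Col11a2, a minor fibrillar chain best known from cartilage, had the only positive fold change of this class, at 1.22 ± 0.549 FPKM in treated and 0.995 ± 0.336 FPKM in vehicle muscles (SD, n = 6 each). Of the 4 fibrillar genes under the filter, none exceeded 0.472 FPKM.

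Col4a1 and Col4a2 had the highest mean levels of the collagens in muscle, where the basement membrane wraps every fibre and capillary. Col4a1 had 41.2, 61.1 and 67.0 FPKM (lowest, median and highest) in treated muscles, against 44.8, 73.7 and 85.7 FPKM in vehicle muscles. The ranges overlapped widely, although all 6 treated muscles were under the vehicle mean (log2 fold change -0.26, 95% interval -0.62 to 0.09, limma adjusted p = 0.999). Col4a2 stood at 36.7, 51.0 and 57.6 FPKM in treated and 42.7, 64.8 and 76.2 FPKM in vehicle muscles (log2 fold change -0.33, 95% interval -0.65 to -0.01, limma adjusted p = 0.999). The start sites of this pair lie 21 bases apart on opposite strands of chromosome 8. The Col4a1 to Col4a2 ratio was 1.18 ± 0.0452 in treated and 1.12 ± 0.0520 in vehicle muscles (SD, n = 6 each). In liver it was 2.02 ± 0.262 in treated and 1.95 ± 0.290 in vehicle livers (SD, n = 6 each). Whether the close start sites bear on these levels was not tested. Col4a5 averaged 1.28 ± 0.346 FPKM in treated and 1.66 ± 0.389 FPKM in vehicle muscles, and the other 3 type IV genes reached at most 0.485 FPKM.

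Type VI matters in muscle because faults in its main chains cause muscular dystrophies in humans. Col6a2 was the 1 collagen of 22 whose groups did not overlap, with lower values in treated muscles, beside 0.171% of all genes tested. It had 11.7, 13.0 and 15.5 FPKM in treated muscles, against 15.5, 19.3 and 21.0 FPKM in vehicle muscles, where the highest treated value, 15.48, lay just under the lowest vehicle value, 15.54. The means were 13.5 ± 1.55 FPKM in treated and 18.9 ± 1.85 FPKM in vehicle muscles (SD, n = 6 each), and the log2 fold change of -0.45 (SE 0.09, 95% interval -0.65 to -0.26) had a limma adjusted p of 0.778. Col6a1 had 23.0, 30.3 and 35.8 FPKM in treated muscles, against 32.0, 38.9 and 44.7 FPKM in vehicle muscles, with 4 treated muscles below every vehicle muscle (log2 fold change -0.37, 95% interval -0.60 to -0.13, limma adjusted p = 0.999). Col6a3 had the sign of Col6a1 and Col6a2 in muscle, at 8.18 ± 1.25 FPKM in treated and 10.4 ± 2.54 FPKM in vehicle muscles (SD, n = 6 each). Whether Col6a3 parted from the other chains in either tissue was not tested. Col6a6 averaged 1.37 ± 0.437 FPKM in treated and 1.60 ± 0.151 FPKM in vehicle muscles, and Col6a4 and Col6a5 reached at most 0.298 FPKM.

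Among the remaining types, Col15a1, found where basement membrane meets fibres and vessels, had 6.59, 8.53 and 13.0 FPKM in treated and 7.59, 12.9 and 16.4 FPKM in vehicle muscles (log2 fold change -0.46, 95% interval -0.83 to -0.10, limma adjusted p = 0.999). Col18a1 averaged 9.82 ± 2.33 FPKM in treated and 11.2 ± 3.37 FPKM in vehicle muscles, and Col14a1 6.08 ± 1.35 FPKM in treated and 6.67 ± 2.02 FPKM in vehicle muscles (SD, n = 6 each). The other 5 tested genes of the class (Col16a1, Col8a1, Col20a1, Col12a1 and Col23a1) had log2 fold changes between -0.13 and 0.04, and the 13 not tested reached at most 1.61 FPKM. Over the 12 muscles, the order of mean levels was Col4a1 at 65.3, Col4a2 at 56.7, Col3a1 at 42.4, Col1a1 at 39.4, Col6a1 at 34.5 and Col1a2 at 25.6 FPKM. Neighbours in that order overlapped in their ranges. As class sums, fibrillar collagens gave 89.5, 120 and 138 FPKM (lowest, median and highest) in treated and 116, 169 and 193 FPKM in vehicle muscles. Type IV gave 80.1, 115 and 126 FPKM in treated and 89.3, 141 and 164 FPKM in vehicle muscles, and type VI 42.0, 53.7 and 60.4 FPKM in treated and 54.8, 71.3 and 79.7 FPKM in vehicle muscles. In these 3 sums vehicle 6_1 was the lowest of its group and lay inside the treated range.

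Vehicle muscle 6_1 was the lowest vehicle library in 16 of 22 collagens, and treated 5_2 the lowest treated one in 11 of 22. For these counts no share over all genes tested was computed. With each muscle left out in turn, the median log2 fold change stayed between -0.36 and -0.20 and no collagen was called. Without vehicle 6_1 and treated 5_2 together it was -0.29. The fibroblast list had all 8 of its genes negative, beside 51.4% of all genes tested, with a median log2 fold change of -0.31. It summed to 294 to 425 FPKM in treated and 368 to 468 FPKM in vehicle muscles. Its lowest library was treated 5_2, and its highest treated library was 5_5. Lum, a proteoglycan that shapes collagen fibrils, averaged 21.9 ± 2.80 FPKM in treated and 29.0 ± 5.48 FPKM in vehicle muscles, and Thy1 3.92 ± 0.810 FPKM in treated and 5.13 ± 0.880 FPKM in vehicle muscles (SD, n = 6 each). The tendon list summed to 41.0 to 123 FPKM in treated and 61.2 to 110.5 FPKM in vehicle muscles. The adipocyte list ran from 149 FPKM in 5_2 to 1274 FPKM in 5_5 among treated muscles, against 288 to 1152 FPKM among vehicle muscles, where 6_1 was lowest. The muscle fibre sum was highest in the same libraries, at 50580 FPKM in treated 5_2 and 57120 FPKM in vehicle 6_1. The neutrophil list summed to 9.17 to 54.2 FPKM in treated and 5.00 to 11.98 FPKM in vehicle muscles. The red cell list had all 5 of its genes positive, where 51.4% of all genes tested were below 0. Its median log2 fold change was 0.90, and it summed to 340 to 2348 FPKM in treated and 485 to 1015 FPKM in vehicle muscles. The part of these cell types in the collagen values was not tested.

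**Figure D4:**
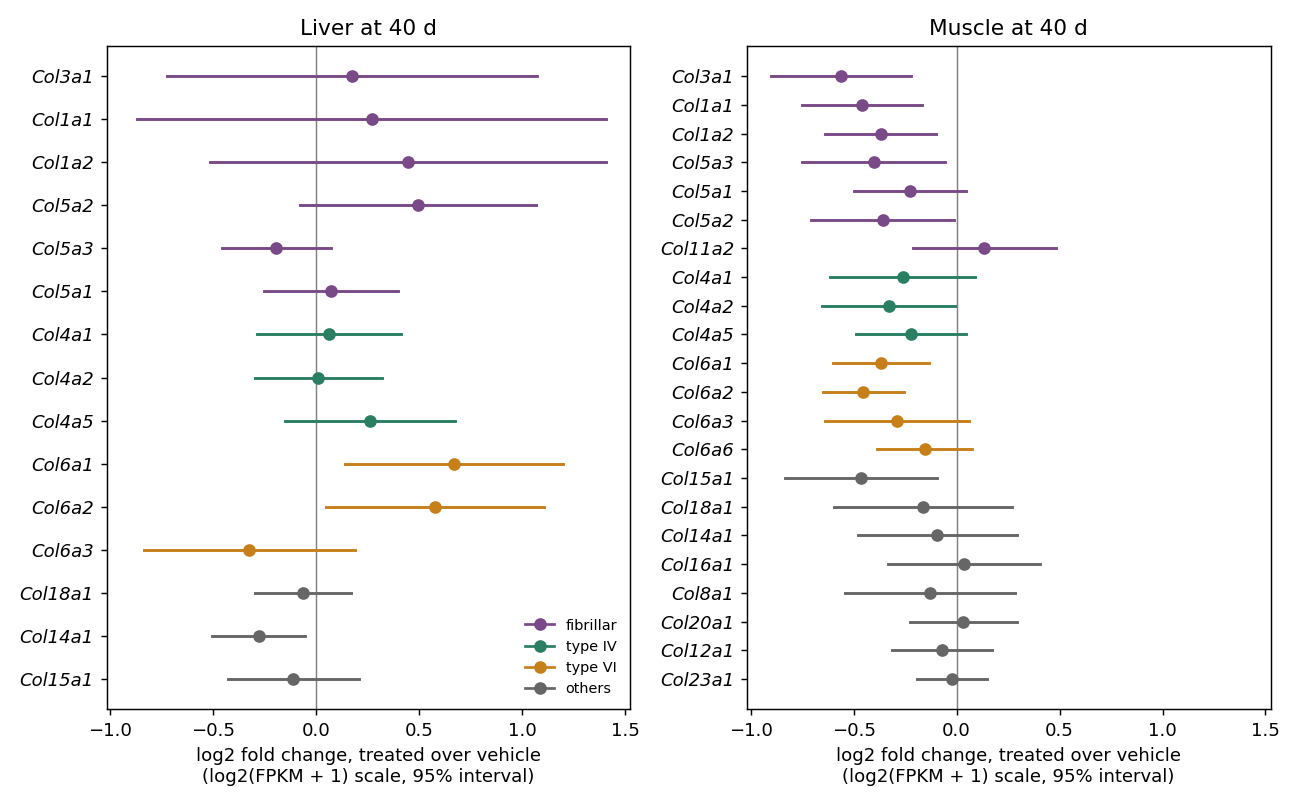
Log2 fold change of treated against vehicle mice, from log2(FPKM + 1) values (x axis), with 95% intervals for each collagen tested in liver (left) and muscle (right) at 40 d, coloured by class. Intervals of types I and III in liver span from below -0.5 to above 1.0, and 19 of 22 points in muscle lie below 0.

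Whether the effect differed between tissues was tested as the liver effect minus the muscle effect, for the 15 collagens that passed the filter in both. None was called, beside 0.0106% of the 9436 genes tested. The difference was above 0 in 13 of 15, beside 50.2% of all genes tested, with a median of 0.35 on the log2 scale, beside 0.001 over all genes tested. At an unadjusted p under 0.05 there were 3, all above 0, beside 2.73% of all genes in that direction. Col6a1 had a difference of 1.04 (SE 0.28, 95% interval 0.46 to 1.61) and Col6a2 of 1.03 (SE 0.27, 95% interval 0.47 to 1.59), each with a limma adjusted p of 0.350. The intervals of both exclude 0 before adjustment over all genes. For Col5a2 the difference was 0.85 (95% interval 0.18 to 1.52, limma adjusted p = 0.783), for Col4a5 0.48 (95% interval -0.004 to 0.97, limma adjusted p = 0.955) and for Col1a2 0.81 (95% interval -0.19 to 1.81, limma adjusted p = 0.997). Col6a3, at -0.04 (95% interval -0.65 to 0.58, limma adjusted p = 0.997), and Col14a1, at -0.19, were the 2 members below 0. The liver and muscle tables may have been normalized separately, so each effect was taken within its table.

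Levels set side by side across those tables are only rough. In vehicle mice, Col4a1 averaged 11.9 ± 1.83 FPKM in liver and 71.6 ± 15.5 FPKM in muscle, and Col6a1 5.79 ± 1.71 FPKM in liver and 38.9 ± 4.31 FPKM in muscle (SD, n = 6 each). Col18a1 went the other way, at 89.4 ± 11.5 FPKM in liver and 11.2 ± 3.37 FPKM in muscle. In all, 15 collagens were tested in liver and 22 in muscle, and 3 collagens (Col2a1, Col19a1 and Col26a1) had no reads in any liver, while each of the 44 had reads in muscle. A count of 0 allows up to 3 reads in a library, which for those genes is at most 0.0283 FPKM.

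At 24 h there was 1 library per group, so no test was possible and the values are described only. In liver, 18 collagens had a mean of at least 1 FPKM over both libraries. The log2 ratio of treated over vehicle was below 0 in 13 of them, beside 41.7% of all 12353 genes at that level, with a median of -0.22, beside 0.04 over all genes. A ratio at or below -0.5 was reached by 2 of the 18, Col6a1 and Col6a2, beside 3.66% of all genes, and 0 reached 0.5, beside 4.0%. Col6a1 stood at 10.8 FPKM in the treated and 16.5 FPKM in the vehicle liver, Col6a2 at 3.74 and 6.75 FPKM, and Col6a3 at 8.61 and 12.3 FPKM. All 3 type VI chains were thus lower in the treated liver at 24 h, whereas at 40 d the means of Col6a1 and Col6a2 were higher in treated livers. Col1a1 stood at 15.3 FPKM in the treated and 19.4 FPKM in the vehicle liver, Col3a1 at 20.7 and 22.7 FPKM, and Col18a1 at 140 and 104 FPKM. No spread is known for these ratios.

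**Figure D5:**
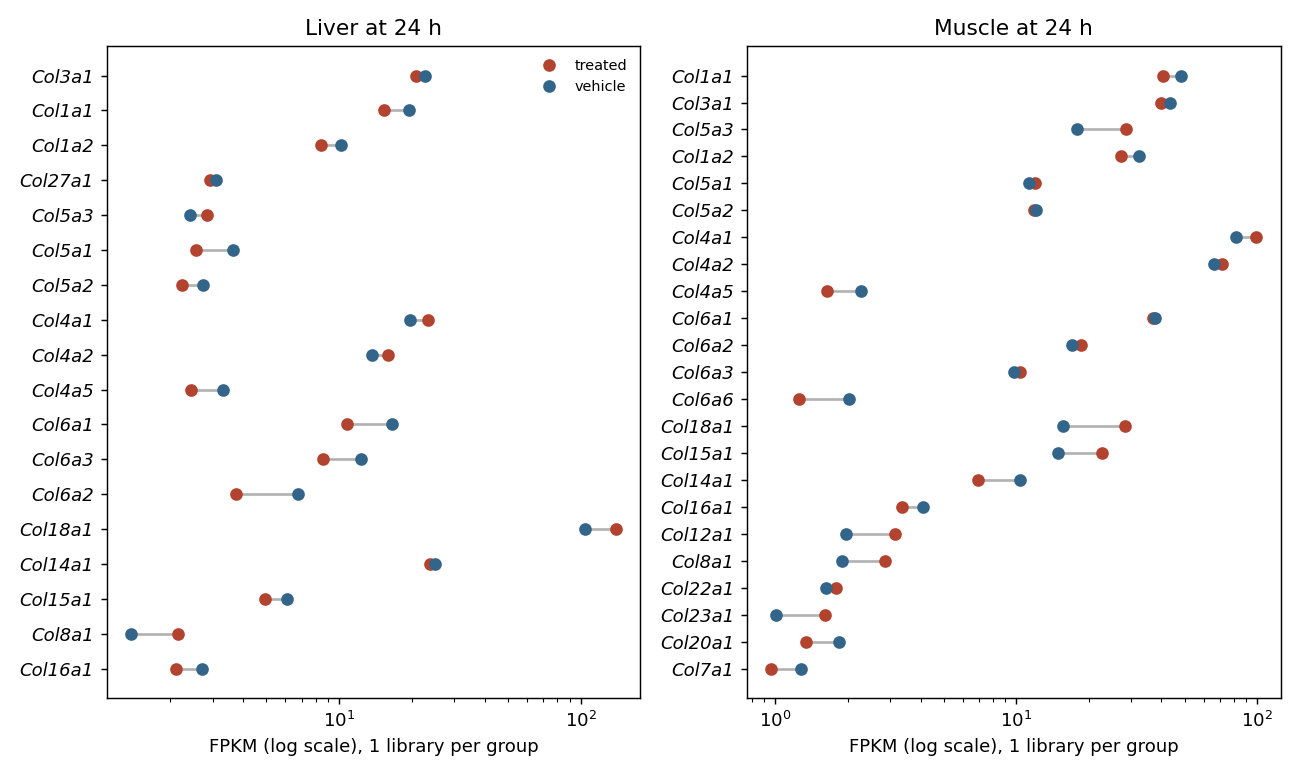
FPKM (log axis) of the collagens with a mean of at least 1 FPKM at 24 h, by class, with 1 treated and 1 vehicle library per tissue joined by a line. Type VI chains lie lower in the treated liver, and Col18a1, Col5a3 and Col15a1 lie higher in the treated muscle.

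In muscle at 24 h, 23 collagens had a mean of at least 1 FPKM, with a median log2 ratio of 0.07, beside -0.02 over all 12262 genes at that level. The ratio was above 0 in 12 of 23, beside 46.6% of all genes. At or above 0.5 were 3, beside 8.37%, and at or below -0.5 was 1 (Col14a1, at 6.95 FPKM in the treated and 10.4 FPKM in the vehicle muscle), beside 6.3%. Col18a1 stood at 28.4 FPKM in the treated and 15.6 FPKM in the vehicle muscle, Col5a3 at 28.5 and 17.9 FPKM, and Col15a1 at 22.7 and 14.9 FPKM. Of the other fibrillar chains, Col1a1 stood at 40.6 FPKM in the treated and 48.2 FPKM in the vehicle muscle, and Col3a1 at 39.7 and 43.5 FPKM. Col4a1 stood at 99.1 and 81.3 FPKM, Col6a1 at 36.9 and 37.7 FPKM, and Col6a2 at 18.5 and 17.1 FPKM. At 40 d, by comparison, 19 of 22 were below 0 in muscle.

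Genes that act on collagens were read from the same fits. The counts of all lists stand beside these shares over all genes tested. In liver 49.0% were above 0 and 0.255% were called, and in muscle 51.4% were below 0 and 0.0% were called. No such share was computed for counts of treated libraries above or under a vehicle mean, here or for the collagens. The list of collagen synthesis and processing holds 32 genes for the enzymes that hydroxylate, fold, trim and cross-link the chains. In liver 21 were tested, 16 with a positive and 5 with a negative fold change, a median of 0.06 and none called. Of the enzymes, Loxl1, a lysyl oxidase that cross-links matrix fibres, averaged 4.50 ± 2.69 FPKM in treated and 2.14 ± 0.555 FPKM in vehicle livers (SD, n = 6 each), above the vehicle mean in 6 of 6 (limma adjusted p = 0.233). P3h4, part of a complex for collagen modification, averaged 2.70 ± 0.692 FPKM in treated and 1.70 ± 0.583 FPKM in vehicle livers (limma adjusted p = 0.207), and Creb3l1, a transcription factor of the secretory pathway, 2.01 ± 0.925 FPKM in treated and 1.11 ± 0.304 FPKM in vehicle livers (limma adjusted p = 0.247). In muscle 27 were tested, 5 positive and 22 negative, with a median of -0.11 and none called. Plod1, a lysyl hydroxylase, averaged 9.55 ± 0.692 FPKM in treated and 10.9 ± 0.811 FPKM in vehicle muscles, Bmp1, which trims procollagen, 4.86 ± 0.415 FPKM in treated and 5.74 ± 0.957 FPKM in vehicle muscles, and Adamts2, which also trims it, 5.72 ± 1.31 FPKM in treated and 7.42 ± 1.56 FPKM in vehicle muscles (SD, n = 6 each, limma adjusted p = 0.999 for each).

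For collagen breakdown and collagen receptors, 13 of 21 genes were tested in liver, 9 positive and 4 negative, with a median of 0.27 and none called. Timp1, an inhibitor of matrix proteases, averaged 13.6 ± 8.46 FPKM in treated and 6.91 ± 2.10 FPKM in vehicle livers (limma adjusted p = 0.325). Mmp14, a membrane protease that cuts collagen, averaged 13.0 ± 4.20 FPKM in treated and 9.03 ± 1.08 FPKM in vehicle livers (limma adjusted p = 0.307), and Mmp12, a macrophage elastase, 7.67 ± 1.89 FPKM in treated and 10.6 ± 2.36 FPKM in vehicle livers (SD, n = 6 each, limma adjusted p = 0.290). In muscle 15 were tested, 4 positive and 11 negative, with a median of -0.10 and none called. Fap, Mmp2 and Timp2 had the smallest p there, and Mmp2, a gelatinase, averaged 30.0 ± 3.08 FPKM in treated and 36.2 ± 6.69 FPKM in vehicle muscles (SD, n = 6 each, limma adjusted p = 0.999).

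Among 24 partners of collagen in the matrix, 17 were tested in liver, 13 positive and 4 negative, with a median of 0.14 and none called. Nid1, a linker of laminin and type IV collagen, averaged 6.38 ± 1.65 FPKM in treated and 9.37 ± 2.02 FPKM in vehicle livers (SD, n = 6 each), under the vehicle mean in 6 of 6 (limma adjusted p = 0.203). Thbs1 averaged 2.20 ± 1.21 FPKM in treated and 1.05 ± 0.318 FPKM in vehicle livers (limma adjusted p = 0.317), and Dcn 61.0 ± 7.85 FPKM in treated and 53.5 ± 5.71 FPKM in vehicle livers (limma adjusted p = 0.464). In muscle 23 were tested, 5 positive and 18 negative, with a median of -0.17 and none called, and Lum, Nid2 and Mfap5 had the smallest p. Of 10 genes listed for transforming growth factor β, the best-known inducer of collagen genes, 9 were in the tables. Of these 7 were tested in liver, 4 positive and 3 negative, and 9 in muscle, 4 positive and 5 negative, with none called. Tgfbr2, a receptor for this factor, averaged 7.80 ± 1.02 FPKM in treated and 9.57 ± 0.840 FPKM in vehicle livers, under the vehicle mean in 6 of 6 (SD, n = 6 each, limma adjusted p = 0.207). Tgfb3 averaged 2.72 ± 1.27 FPKM in treated and 1.59 ± 0.554 FPKM in vehicle livers (limma adjusted p = 0.310), and Tgfb1 6.19 ± 2.97 FPKM in treated and 4.75 ± 0.453 FPKM in vehicle livers (limma adjusted p = 0.578). Treated liver 5_5, the highest in most collagens, also had the highest sums of the synthesis list, at 1028 FPKM, of the breakdown list, at 313 FPKM, and of the partner list, at 470 FPKM, against at most 795, 246 and 323 FPKM in any vehicle liver.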

How the data were processed

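RNA from livers and muscles was extracted with Trizol and libraries were made with a NEBNext Ultra kit, per the labels' protocols. The authors deposited FPKM values, per the file headers, in 3 tables (liver at 40 d, muscle at 40 d, and 24 h). These may have been normalized separately. Of genome builds, the submitters' processing notes list GRCm38 and mm10. Neither aligner nor counter nor any use of strand is given in the sources used here. Every FPKM value was a whole multiple of 1 read (100% of values within a tolerance of 0.01), so reads were recovered with the exonic lengths in the tables, and libraries held 16.1 to 19.9 M reads on genes. At that depth a value of 1 FPKM for a short gene rests on few reads, and intervals from reads would cover counting error only. All 44 collagens had the same coordinates in GENCODE M21.

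The test was two-sided, on log2(FPKM + 1), for genes that reached 1 FPKM in 6 or more of 12 libraries, and used limma (version 3.58.1, R 4.3.3) with moderated variances and a mean trend, treated against vehicle (6 against 6), with Benjamini-Hochberg adjustment over all genes tested and a threshold of 0.05. The difference between tissues was a contrast over all 24 of the 40 d libraries. Ratios at 24 h used the same pseudocount of 1, without a test. Sequences were read from RefSeq (GRCm38.p6). Python 3.11.15 was used with pandas 2.3.3, NumPy 2.4.6 and, for figures, matplotlib 3.10.9.

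In simulated reads, 36 of 53 genes changed 1.5-fold, 61 of 70 changed 2.0-fold and 66 of 68 changed 4.0-fold were called in liver, with 8 false calls among 11048 genes. In muscle these were 32 of 61, 53 of 69 and 64 of 64, with 12 false calls among 11684, and for the difference 38 of 83, 45 of 57 and 58 of 59, with 11 false calls among 9419. Each gene was drawn independently, with the same spread in both groups and many changed genes planted at once. In the data, several collagens spread more in treated livers, and no gene was called in muscle. The rates may therefore be too high for the collagens.

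The members and the gene lists were chosen with earlier results of these data known. Named collagens are those past the threshold, the 8 with the highest mean, and the 5 with the smallest p in each comparison, and from other lists the 3 with the smallest p. Other collagens are named to account for their class, after their values were seen. Alternatives were another pseudocount, other filters, rescaling, limma voom on the recovered reads, leaving out libraries, only mice of leading digits 5 and 2, and a replicate block. The single drugs were not analysed here. A count test was planned in case the files held counts, and limma on the log scale took its place because they hold FPKM.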

Additional observations from a re-analysis of the deposited data

Results flagged for a closer look

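Of 74 groups of 6 libraries examined (each tested collagen in the treated and in the vehicle libraries of a tissue), 9 held a library whose gap to its nearest neighbour was over 0.625 of the range of the group. For independent normal values such a gap arises in about 1 group in 20. These groups share libraries and their FPKM values need not be normal, so 9 of 74 was not read as an excess. In treated livers, 5_5 stood apart with 9.55 FPKM of Col6a2 and 3.08 FPKM of Col4a5. In treated muscles, 5_2 stood apart at the low end with 41.2 FPKM of Col4a1 and 5.28 FPKM of Col18a1, while 4_5 had 13.0 FPKM of Col15a1 and 5_5 had 5.73 FPKM of Col16a1, each the highest treated value. In vehicle muscles, 6_1 stood apart at the low end with 7.09 FPKM of Col5a1, 6.42 FPKM of Col5a2 and 5.60 FPKM of Col6a3.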

How the results depend on the processing

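No collagen was called in liver, in muscle or in the difference between tissues under any alternative run, and the smallest limma adjusted p of a collagen was 0.158 in liver (without treated 5_2), 0.146 in muscle (without vehicle 6_1) and 0.0935 in the difference (without treated liver 5_2). With 1 library left out in turn, the median log2 fold change of the collagens was -0.056 to 0.17 in liver, -0.36 to -0.20 in muscle and 0.28 to 0.48 in the difference. The liver median was below 0 only without treated 5_5, and over the livers left out Col3a1 ran from -0.12 to 0.45, Col1a1 from -0.093 to 0.60, Col4a1 from -0.040 to 0.17 and Col4a2 from -0.059 to 0.084 (log2 fold changes). Without treated livers 5_1 and 5_5 together, a choice made after seeing the data, the liver median was -0.15, and the log2 fold changes were -0.39 for Col3a1, -0.50 for Col1a1, -0.092 for Col4a1, -0.21 for Col1a2 and -0.13 for Col4a2. Rescaled to one FPKM sum, Col4a2 in liver was at -0.0020, 4 collagens in muscle had an unadjusted p under 0.05, against 9 without rescaling, and 2 of all genes were called in muscle, against 0. With only mice of leading digits 5 and 2, Col18a1 in liver was at 0.020, the liver median at 0.15 with 0 collagens at an unadjusted p under 0.05, and the muscle median at -0.42. With no filter the medians were 0.02 in liver, -0.05 in muscle and 0.07 in the difference, since low genes with fold changes near 0 enter, and the muscle median was -0.07 with a filter at 0.1 FPKM. Collagens at an unadjusted p under 0.05 numbered 5 with no filter in liver and in the difference, against 3 each with it, and 7 of all genes were called in the difference, against 1. The count of genes called over the whole liver table, 28, was 0 with no filter or with only digits 5 and 2, 0 to 83 with 1 liver left out and 4 without 5_1 and 5_5. The 24 h liver median was -0.33 after rescaling. With the mouse number as a replicate block, 0 collagens were called in the difference (smallest limma adjusted p = 0.294), and 3 of all genes were called, against 1 without the block. The labels do not say that same-numbered liver and muscle libraries came from the same animal. Their correlations ran from -0.08 to 0.45. Of 12 mice, 7 correlated best with their own number among the 12 muscles, where random matching would give few. Pairing is thus possible but not established, and the main contrast took the 24 libraries as independent.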

Other observations

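The ratio of Col6a3 to Col6a1, in FPKM, was 0.101, 0.127 and 0.177 (lowest, median and highest) in treated livers, against 0.229, 0.282 and 0.706 in vehicle livers, so the groups did not overlap in liver. In muscle the ratio overlapped, at 0.213, 0.281 and 0.316 in treated and 0.175, 0.269 and 0.319 in vehicle muscles. The ratio of Col6a1 to Col6a2 stayed at 2.55 ± 0.332 in treated and 2.54 ± 0.288 in vehicle livers (SD, n = 6 each). These ratios were singled out after the values were seen and no test was made of them. Of the 15 collagens tested in liver, Col6a1 had the most positive log2 fold change, 0.67, and Col6a3 the most negative, -0.32. Their ratio was therefore likely to separate the groups, although each gene overlapped on its own. No share of other gene pairs without overlap was computed.

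Some collagens below the filter had reads mainly in treated livers. Col11a1, a minor fibrillar chain, had 1, 28, 1, 12, 0 and 40 reads in treated livers 4_5 and 5_1 to 5_5, against 0 reads in each of the 6 vehicle livers, where a count of 0 allows up to 3 reads, or 0.0123 to 0.0140 FPKM. Col8a2, a short-chain collagen, had 19, 52, 10, 61, 8 and 98 reads in the same treated livers, against 1 to 13 reads in vehicle livers. For both genes, the highest values were in treated 5_5, 5_1 and 5_3, as for Col1a1. In muscle, Col7a1, the collagen of anchoring fibrils, was above the vehicle mean in 6 of 6 treated muscles, at 1.05 ± 0.225 FPKM in treated and 0.675 ± 0.165 FPKM in vehicle muscles (SD, n = 6 each). It was under the filter, and these 3 genes were named after their values were seen.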
